A study of Secale cereale x Triticum turgidum subsp. durum with 48 samples.

Results

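Actin, ef1a and gapdh were read through the control probe sets that the wheat array carries for these genes. Every probe set whose ID starts with AFFX-Ta-actin, AFFX-Ta-ef1a or AFFX-Ta-gapdh was taken, which gave 12 of the 61290 probe sets in the table: 4 for actin, 3 for ef1a and 5 for gapdh. They are written here without the shared start of the ID, as in actin-M_at, where 3, M or 5 stands before the suffix; on control probe sets of this maker these mark the 3′ end, the middle and the 5′ end of the transcript. A suffix _x_at or _s_at marks probes that can also bind other transcripts. The names come from the IDs, and the readings below ask how high each gene read, how far its group means ranged and which of the 3 genes held steadiest within leaf, stem and seed.

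Actin forms the microfilaments of the plant cytoskeleton, on which organelles and vesicles move. Elongation factor 1-alpha (ef1a) carries aminoacyl-tRNA to the ribosome during translation. Glyceraldehyde-3-phosphate dehydrogenase (gapdh) catalyses a step of glycolysis, and plants also hold a plastid form that works in photosynthetic carbon fixation. Genes of these kinds are widely used as references, against which other transcripts are scaled, on the assumption that their own level moves little between the samples compared. Each is encoded by a gene family in cereals, and a probe set reads only the copies it matches.

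The samples were 48 arrays of triticale, a hybrid cereal of durum wheat and rye, grown in chambers and labelled as 2 to 5 biological replicates of each of 16 groups. Root and coleoptile, the sheath that covers the emerging shoot, were taken from cultivar AC Alta 7 days after sowing, at stage 7 of the Zadoks growth scale of cereals, and their RNA was extracted with cesium chloride. All other samples came from the cultivar AC Certa. Leaf was taken at stages 13 and 23, and flag leaf at stages 49, 75 (22 days post anthesis) and 85 (30 days post anthesis), with an RNeasy kit. Stem was taken at stages 21, 45, 59 and 75 with the same kit and a further cleanup. Seed at stage 85 was dissected into embryo, endosperm and pericarp, extracted with guanidine hydrochloride, and crease and epiderm, extracted with RNeasy. Flag leaf at stage 49 had 5 arrays, pericarp and epiderm had 2 each, and every other group had 3. Extraction and cultivar follow the tissue, so their effects and those of tissue cannot be told apart between such groups. Nothing in the labels says whether replicates came from separate plants, so p-values measure the spread between these arrays. Values are on the log2 scale after RMA, and 1 unit is a 2-fold step. Array medians lay between 4.87 and 5.03, the median correlation between arrays of a group was 0.987 and the lowest was 0.946.

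Most readings of the control probe sets for the 3 genes lay below the upper end of those of probe sets that have no target in the plant. That upper end, the background level, was set at 5.99 for all arrays alike. It is the 95th percentile of the 64 reporter probe sets, which are made for foreign marker genes and had a median of 3.36. Of the 192 actin readings, 96 (50%) lay above it. Of the 240 gapdh readings, 48 (20%) did, and of the 144 ef1a readings, 2 (1.39%) did. Of the 61115 tested probe sets, 32.4% to 35.2% passed it, depending on the array. Actin-M_at was the one member above the common level of 5.99 on all 48 arrays. Ef1a-3_at, ef1a-5_at, gapdh-3_at and gapdh-M_at were above it on none. The remaining 7 passed it on some arrays. Any single array had between 1 and 6 of the 12 above background, with a median of 3. The reporter 95th percentile of single arrays lay between 5.47 and 6.50, and counts with a separate level per array were not made. For the crease group it was 6.25, above the 6.16 that actin-M_at read in crease replicate 2. A reading below 5.99 cannot be told from that of a probe set without a target. In whole tissue, fewer cells of a type and less RNA per cell cannot be told apart either. Differences between such readings are given below as log2 differences, without a fold.

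The level of each member against background can be given in order of its mean. Actin-M_at averaged 6.74, above the mean of 74.6% of the tested probe sets. Gapdh-5_at averaged 6.23 and was above background on 36 arrays, and actin-5_at averaged 6.14 and was above it on 35. Actin-M_x_at averaged 5.90 (12 arrays above), gapdh-5_x_at 5.68 (5 arrays) and gapdh-M_x_at 5.57 (7 arrays). Apart from actin-M_at, these members had readings on both sides of the background level. Ef1a-3_at averaged 5.16, ef1a-M_s_at 4.95 (2 arrays above), actin-3_at 4.89 (1 array above), gapdh-3_at 4.36, ef1a-5_at 4.09 and gapdh-M_at 3.32. The last of these read above the mean of 48.4% of the reporter probe sets and is indistinguishable from them. By contrast, the array's Ubiquitin probe sets, for the small protein that tags others for degradation, lay between 9.72 and 13.99 and were above background on every array.

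**Figure D1:**
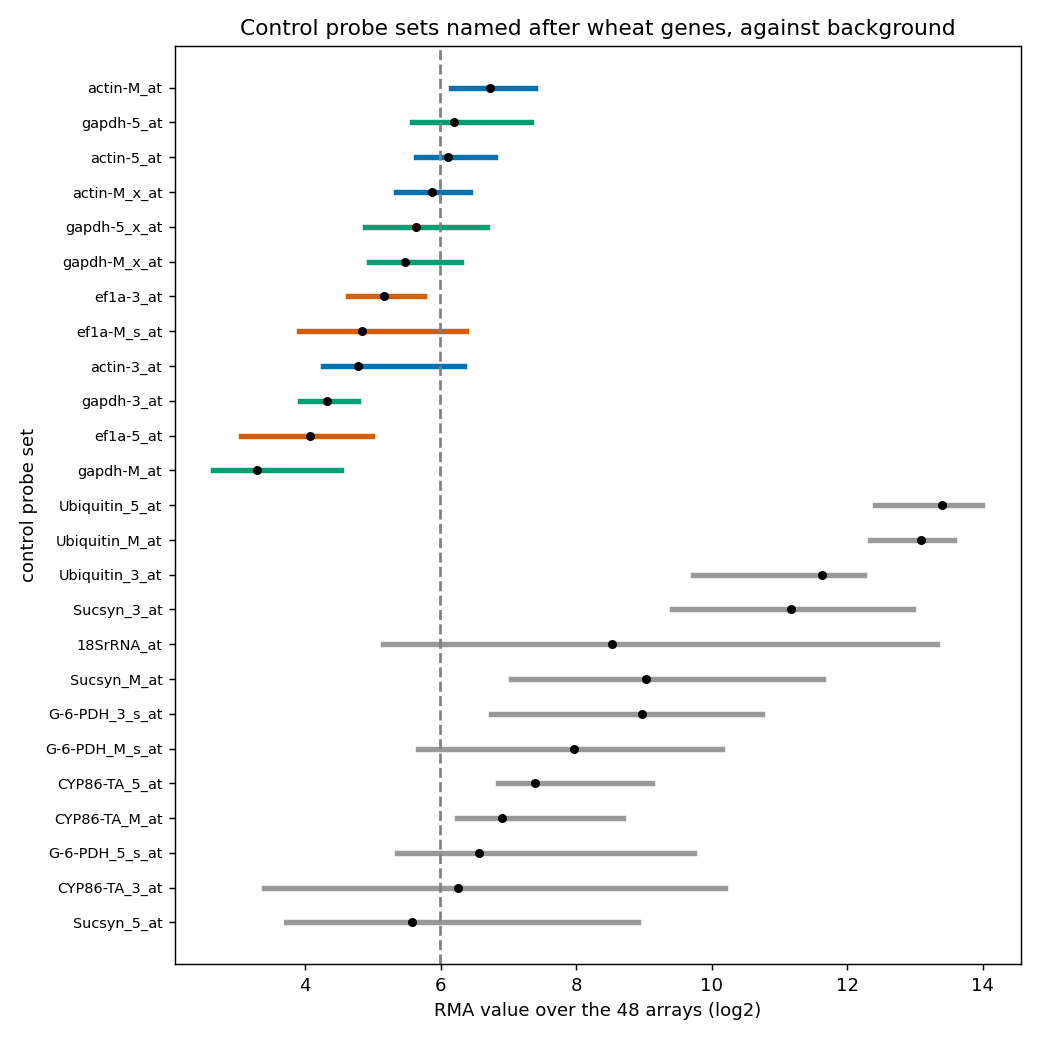
Lowest to highest value over the 48 arrays (bars, log2 RMA value on the horizontal axis) and the median (points) of the 25 control probe sets named after wheat genes, with actin in blue, ef1a in orange, gapdh in green and the others in grey; the dashed line is the background level of 5.99. Actin-M_at is the one coloured bar that lies wholly to the right of the line, while the 3 Ubiquitin bars start at 9.72 or more.

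The counts depend on the background level. Taken from 23 other control probe sets without a plant target (TrpnX and Tag), an alternative chosen after seeing the data, the level was 4.82. Actin-5_at, actin-M_at, actin-M_x_at, gapdh-5_at, gapdh-5_x_at and gapdh-M_x_at then lay above it on all 48 arrays. Ef1a-3_at did so on 44 arrays, ef1a-M_s_at on 25, actin-3_at on 22 and ef1a-5_at on 2. Gapdh-3_at and gapdh-M_at were still above it on no array. The first reporter level was kept for all statements here, and each gene is represented by its member with the highest mean, namely actin-M_at, ef1a-3_at and gapdh-5_at.

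Actin-M_at was the brightest actin reading and was highest in root. Its root arrays read 7.35, 7.12 and 7.40, and its coleoptile arrays 6.72, 6.88 and 7.00. In stem it read 6.82, 6.59 and 6.45 at stage 21, 7.23, 6.87 and 6.76 at stage 45, 7.09, 6.94 and 7.20 at stage 59, and 6.49, 6.52 and 6.75 at stage 75. The stem arrays at stage 59 all lay above those at stage 75, while the other stages overlapped their neighbours. In leaf it read 6.89, 6.58 and 6.74 at stage 13, and 6.86, 6.66 and 6.33 at stage 23. Flag leaf read 6.49, 6.70, 6.61, 7.00 and 6.88 at stage 49, then 6.63, 6.52 and 6.52 at stage 75, and 6.44, 6.68 and 6.49 at stage 85. All 5 leaf groups overlapped. In seed, embryo read 6.59, 6.50 and 6.49, endosperm 6.92, 6.89 and 6.75, pericarp 6.57 and 6.73, and epiderm 6.86 and 6.65. Crease read 6.34, 6.16 and 7.07, so that its 3 arrays span more than the seed groups' means do.

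Over all 16 groups the mean of actin-M_at ran from 6.52 ± 0.482 in crease to 7.29 ± 0.149 in root (SD, n = 3 each), a range of 0.77 (1.70-fold). Ordered by mean, all 15 pairs of neighbouring groups overlapped in their arrays. The other actin probe sets had different ends. Actin-5_at was lowest in stem at stage 21 (5.87) and highest in crease (6.75), where its arrays read 6.75, 6.81 and 6.69 and none of the other 10 seed arrays reached them. Actin-M_x_at ran from 5.66 in leaf at stage 23 to 6.36 in root. Actin-3_at ran from 4.49 in endosperm to 5.43 in flag leaf at stage 49, all below background; its one reading above background, 6.34, came from 1 stem array at stage 75 beside 4.71 and 4.73.

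Ef1a-3_at stayed below background on every array, and its readings moved in a narrow band. Root read 5.59, 5.45 and 5.33, and coleoptile 5.07, 5.34 and 5.27. In stem, stage 21 read 5.13, 5.0 and 5.01, stage 45 read 5.01, 5.06 and 5.04, stage 59 read 4.88, 5.21 and 5.39, and stage 75 read 5.0, 5.10 and 5.26. The stem stages overlapped throughout. Leaf read 5.34, 5.34 and 4.79 at stage 13 and 4.65, 5.29 and 4.79 at stage 23. Flag leaf read 5.17, 5.17, 5.26, 4.97 and 5.02 at stage 49, 4.63, 4.94 and 5.20 at stage 75, and 4.85, 4.88 and 4.88 at stage 85. The 3 arrays of leaf at stage 13 differed among themselves by more than the leaf means did. In seed, embryo read 5.04, 5.32 and 5.30, crease 5.64, 5.65 and 5.23, endosperm 5.15, 5.52 and 5.03, pericarp 4.90 and 5.34, and epiderm 5.30 and 5.75. Group means ran from 4.87 in flag leaf at stage 85 to 5.53 in epiderm, a range of 0.66, and all 15 neighbouring pairs overlapped.

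The middle ef1a probe set, ef1a-M_s_at, ranged most widely of the 12. Its embryo arrays read 6.37, 6.32 and 5.57, and the first 2 are the only ef1a readings above background. Its flag leaf arrays at stage 49 read 4.27, 3.91, 4.0, 4.77 and 4.69. Between these ends the 16 group means spanned 1.76. Ef1a-5_at ran from 3.40 in flag leaf at stage 85 to 4.78 in stem at stage 59, a range of 1.38, and lay below background throughout.

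Gapdh-5_at stood highest in crease, with readings of 7.33, 7.11 and 7.23. Embryo read 6.65, 6.68 and 6.44, endosperm 6.55, 6.44 and 6.41, pericarp 6.35 and 6.20, and epiderm 6.04 and 6.15. All 3 crease arrays lay above every other array of the series, and both epiderm arrays lay below the rest of the seed. Root read 6.46, 6.07 and 6.30, and coleoptile 5.88, 5.88 and 5.94, below background. Stem read 6.05, 6.27 and 6.22 at stage 21, 6.25, 6.08 and 6.25 at stage 45, 6.58, 6.73 and 6.16 at stage 59, and 5.89, 5.58 and 6.19 at stage 75. The last 2 stages overlapped only through 1 array of each, at 6.16 and 6.19. Leaf read 6.47, 6.36 and 6.03 at stage 13 and 5.73, 6.15 and 6.24 at stage 23. Flag leaf read 5.85, 6.21, 6.02, 6.21 and 6.14 at stage 49, 5.79, 5.83 and 6.08 at stage 75, and 5.59, 5.99 and 5.89 at stage 85. Leaf at stage 13 lay above the common background level on all 3 arrays. Its reading of 6.03 was below the reporter 95th percentile of that group, 6.29. Flag leaf at stage 85 passed the common level on no array and did not overlap leaf at stage 13. Every other pair of leaf groups overlapped. Group means ran from 5.82 in flag leaf at stage 85 to 7.22 in crease, a range of 1.40.

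**Figure D2:**
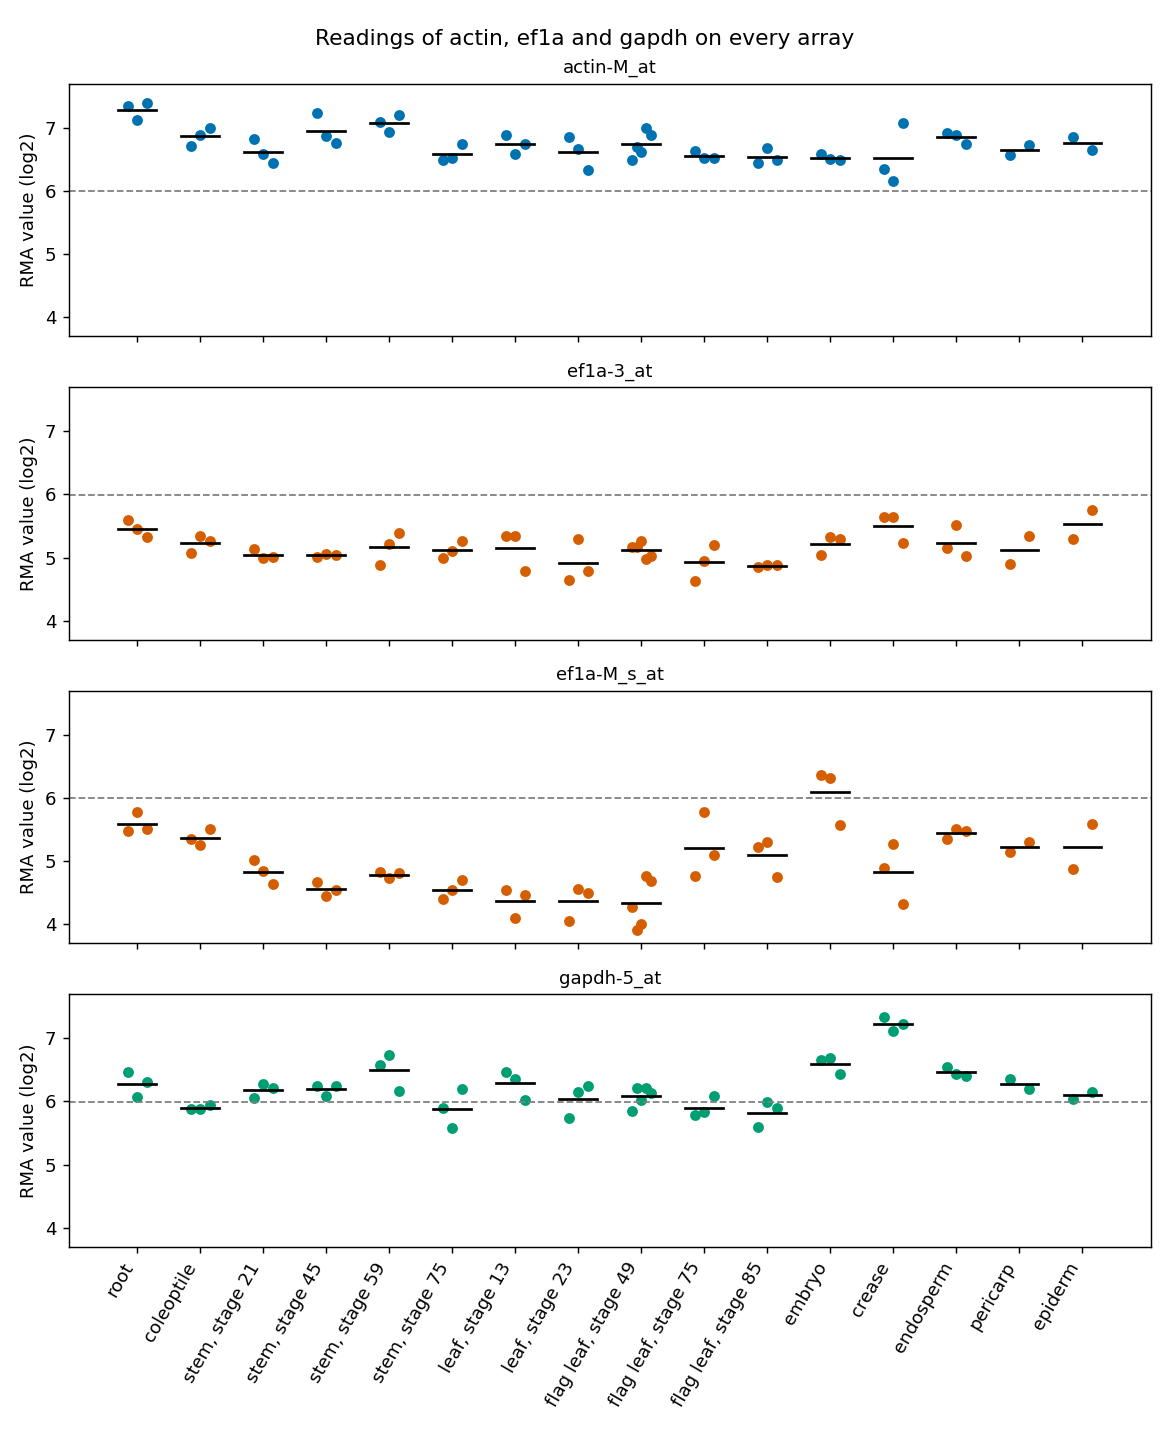
Log2 RMA value (vertical axis) of actin-M_at, ef1a-3_at, ef1a-M_s_at and gapdh-5_at on each of the 48 arrays (points) in the 16 groups (horizontal axis), with group means (bars) and the background level of 5.99 (dashed). Gapdh-5_at stands apart in crease, ef1a-M_s_at is highest in embryo, and ef1a-3_at stays under the line in every group.

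Steadiness was read as the SD of the group means within an organ. Within leaf actin-M_at had the smallest, 0.0957, followed by ef1a-3_at at 0.132 and gapdh-5_at at 0.179. Within stem ef1a-3_at had the smallest, 0.0592, and actin-M_at (0.243) and gapdh-5_at (0.246) were close to each other. Within seed actin-M_at again had the smallest, 0.144, then ef1a-3_at at 0.183 and gapdh-5_at at 0.431. Gapdh-5_at had the largest SD in every organ, though in stem hardly above that of actin, and over all 16 groups, where ef1a-3_at had 0.198, actin-M_at 0.219 and gapdh-5_at 0.349. The order was not tested.

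These SDs need to be set beside the spread between arrays of 1 group. The pooled replicate SD of actin-M_at was 0.182 in leaf and 0.255 in seed, and that of ef1a-3_at was 0.150 in stem. Each was larger than the SD of the group means of the gene in first place. Means of 2 to 5 arrays spread less than single arrays even where groups do not differ, so this alone does not show steadiness. Among all 12 members the smallest SD belonged to actin-M_at in leaf, but to gapdh-5_x_at in stem (0.0443) and to gapdh-3_at in seed (0.143, close to the 0.144 of actin-M_at). For gapdh-5_at in seed the replicate SD was 0.104, well under the SD of its group means. The first place also rests on which arrays are used. Only arrays of the organ itself can change it, 17 in leaf, 12 in stem and 13 in seed. Leaving out 1 of these at a time, ef1a took first place from actin in 1 leaf case and in 3 seed cases. In stem ef1a kept first place each time. Without crease replicate 3, the array at 7.07, the seed SD of actin rose to 0.234 and ef1a came first; the same happened without epiderm replicate 2 or pericarp replicate 1. In seed ef1a also came first with spike centring (0.209 against 0.279 for actin), among the tissues extracted with guanidine hydrochloride (0.0619 against 0.165) and between the RNeasy tissues, crease and epiderm (0.013 against 0.164). After quantile normalization ef1a came first in leaf (0.115 against 0.160 for actin). With the mean of all probe sets of a gene in place of 1, gapdh came first in stem, at 0.0638 against 0.0819 for actin and 0.133 for ef1a, and last in seed, at 0.286. Over all 16 groups that mean put actin first, at 0.115, and ef1a last, at 0.253 beside 0.234 for gapdh. Actin also came first over all groups after quantile normalization (0.193 against 0.205 for ef1a) and without epiderm replicate 1.

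Low spread was common among probe sets near background. The 9826 tested probe sets above background on every array had a median range of group means of 0.72 in leaf, 0.90 in stem and 1.20 in seed, and the 27357 above it on none had 0.36, 0.26 and 0.43. The 12 members had a median range of 0.48 in leaf, 0.37 in stem and 0.58 in seed, and all tested probe sets 0.51, 0.46 and 0.70. The members thus lay between the dim and the bright probe sets. Among the bright ones, 3.57% had a smaller SD of group means in leaf than actin-M_at, 23.2% in stem and 3.28% in seed. Among the dim ones, which are the peers of ef1a-3_at, 40.7% had a smaller SD in leaf, 13.5% in stem and 54.1% in seed. The part that the low level has in the narrow range of ef1a-3_at was not tested.

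**Figure D3:**
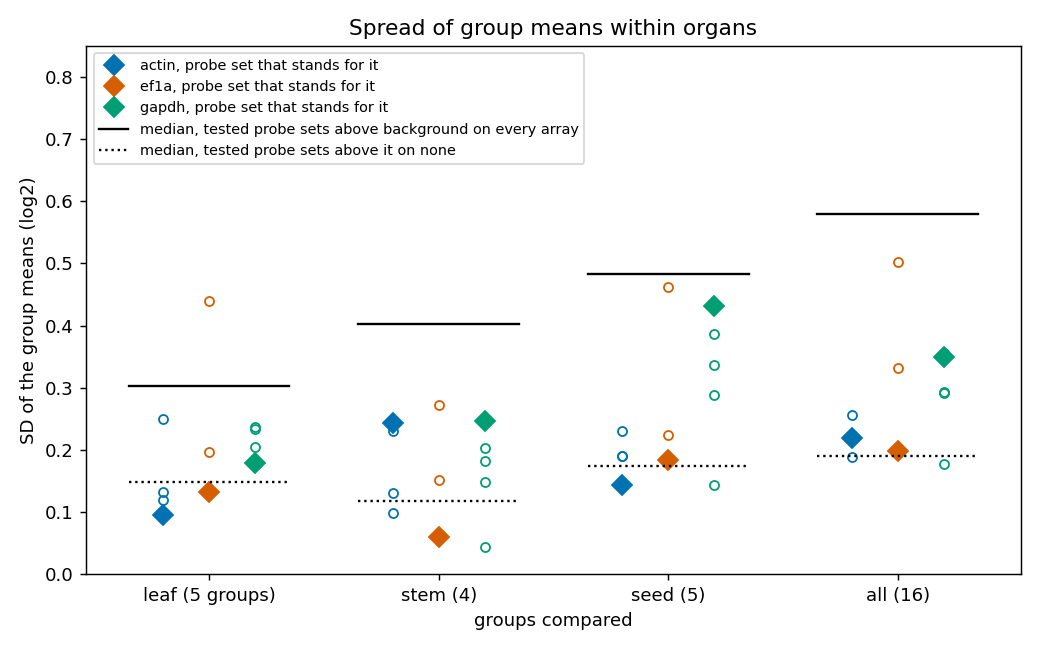
SD of the group means (vertical axis, log2) of the 12 probe sets within leaf, stem, seed and all groups (horizontal axis); diamonds are actin-M_at, ef1a-3_at and gapdh-5_at, open circles the other members, the solid line the median of tested probe sets above background on every array and the dotted line that of those above it on none. Actin-M_at is lowest of the 3 diamonds in leaf and seed, ef1a-3_at in stem, and gapdh-5_at is the highest diamond in all 4 columns.

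Whether the group means of a probe set differed at all was tested with limma's moderated F test on all 48 arrays, with Benjamini-Hochberg adjustment over all rows fitted. A probe set counted as changing at an adjusted p under 0.05 with a range of group means of at least 1. Within leaf 0 of the 12 changed, beside 17.7% of all tested probe sets, and 4 passed the p alone (43.2% of all). Within stem 0 changed (25.8% of all) and 3 passed the p alone (41.8%). Within seed 3 changed (36.3%) and 7 passed the p alone (56.8%). Over all groups 6 changed (59.1%) and 11 passed the p alone (81.7%). The members' counts stood below the share of all tested probe sets in the 2 vegetative organs. For the p alone they were near it in seed and above it over all groups. Of the dim probe sets, above background on no array, 20.2% passed the p in leaf, 12% in stem and 29.1% in seed. Of the bright ones, above it on every array, 72.7%, 78.5% and 88.5% did. The members, at 33.3%, 25% and 58.3%, lay between dim and bright.

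For the probe set that stands for each gene, the tests divided the 3 genes. Actin-M_at did not pass in leaf (range 0.20, adjusted p = 0.639, limma F test) or in seed (0.33, adjusted p = 0.311), but passed the p in stem (0.49, adjusted p = 0.0265) and over all groups (0.77, adjusted p = 0.00144). Ef1a-3_at did not pass in leaf (0.29, adjusted p = 0.384), stem (0.12, adjusted p = 0.936) or seed (0.41, adjusted p = 0.21), and passed the p over all groups (0.66, adjusted p = 0.0168). Neither reached a range of 1 anywhere. Gapdh-5_at changed in seed (1.13, 2.19-fold, adjusted p = 2.2e-06) and over all groups (1.40, adjusted p = 8.86e-09), passed the p in stem (0.60, adjusted p = 0.0124) and missed it in leaf (0.46, adjusted p = 0.0843). A p that misses the threshold does not show that a gene was level, least of all for ef1a-3_at, which was below background throughout. Those that changed over all groups were ef1a-5_at, ef1a-M_s_at, gapdh-5_at, gapdh-5_x_at, gapdh-M_at and gapdh-M_x_at, and ef1a-5_at and gapdh-M_at among them were below background on every array. Actin had no changing probe set, though without crease replicate 3 actin-M_at ranged by 1.04 over all groups (adjusted p = 2.06e-05).

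In seed the changing members were gapdh-5_at, gapdh-5_x_at and ef1a-M_s_at. Crease, the groove tissue of the grain through which assimilates enter, had the highest mean of the 5 seed tissues in 8 of the 12 members, beside 35.8% of all tested probe sets, and tied with epiderm in actin-3_at. Against the other seed tissues on average, gapdh-5_at was 0.87 higher in crease (7.22 against 6.36, SE 0.124, adjusted p = 2.57e-07, limma) and gapdh-5_x_at 0.79 higher (6.56 against 5.77, adjusted p = 2.91e-07), with all 3 crease arrays above the other 10 in both. Both readings stayed under a 2-fold difference from the mean of the others. The share of all tested probe sets with such a separation of arrays was not counted. In all, 6 members passed the p in crease, 5 higher and 1 lower, beside 44% of the tested probe sets. The other 3 higher ones were actin-5_at (0.45, adjusted p = 0.000725), gapdh-M_at (0.49, adjusted p = 0.000644, below background on both sides) and actin-M_x_at (0.35, adjusted p = 0.0146). Ef1a-M_s_at was the lower one, at -0.67 (adjusted p = 0.00475), and lost its call without crease replicate 3 (-0.42, adjusted p = 0.138). Actin-M_x_at lost its call without crease replicate 1 (0.24, adjusted p = 0.173).

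The crease difference depended on scaling. When each array was centred on its hybridization spikes in place of the RMA scale, every value in crease fell by 0.37 relative to the other seed tissues. The crease difference of gapdh-5_at was then 0.50 (adjusted p = 0.0217) and that of gapdh-5_x_at 0.42 (adjusted p = 0.073), while actin-5_at was at 0.08 (adjusted p = 0.748), gapdh-M_at at 0.12 (adjusted p = 0.64) and actin-M_x_at at -0.02 (adjusted p = 0.925), with the sign turned. On the RMA scale all 3 Ubiquitin probe sets had their lowest seed mean in crease, at 9.99 for the 3′ probe set against 11.75 in endosperm. Extraction differed between seed tissues, so the tissues of 1 method were also compared. Among embryo, endosperm and pericarp gapdh-5_at ranged by 0.32 (adjusted p = 0.345) and no member changed. Between crease and epiderm, both extracted with RNeasy, it differed by 1.13 (adjusted p = 9.46e-07) and gapdh-5_x_at by 1.02 (adjusted p = 1.39e-06). Without the 3 crease arrays, an alternative chosen after seeing the data, the seed range of gapdh-5_at was 0.50 (adjusted p = 0.084) and 0 members changed in seed.

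Epiderm, the outer layer, had the lowest seed mean of every gapdh probe set except gapdh-3_at, which was lowest in endosperm (4.18 against 4.225 in epiderm). Gapdh-5_at was 0.54 lower there than in the other seed tissues (adjusted p = 0.00359), gapdh-5_x_at 0.48 lower (adjusted p = 0.00537) and gapdh-M_at 0.64 lower (adjusted p = 0.000308), with both epiderm arrays below the other 11 in each. With 2 arrays these calls are fragile: without epiderm replicate 1 the adjusted p of gapdh-5_at was 0.0897, and without epiderm replicate 2 that of gapdh-5_x_at was 0.0945. With spike centring gapdh-5_x_at missed the threshold too (-0.52, adjusted p = 0.1). Embryo stood out in ef1a-M_s_at alone. Its mean of 6.09 was 0.91 above that of the other seed tissues (SE 0.195, adjusted p = 0.000187), and 1 of its arrays, at 5.57, fell inside the range of the others. In endosperm actin-5_at was lower by 0.35 (adjusted p = 0.0157), a call that was lost without endosperm replicate 2 (-0.22, adjusted p = 0.242), with spike centring (adjusted p = 0.473) and when only the seed groups were fitted (adjusted p = 0.0641). In pericarp no member passed. The share of all tested probe sets that passed the p alone, or had no overlap, was not counted for epiderm, embryo, endosperm or pericarp.

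No member was called in a single comparison. Of 192 tests, 12 members in 16 comparisons, 0 had an adjusted p under 0.05 together with a difference of at least 1 by limma, 29 passed the adjusted p alone and 49 had an unadjusted p under 0.05. The 29 lay between 0.23 and 0.92 in size, and in 16 of them both sides were below background. Actin had 7 of its 64 tests among them, ef1a 6 of 48 and gapdh 16 of 80. The share of all tested probe sets passing the p alone was counted only in some comparisons, where it is given. The total of 29 has no such share beside it. Within the fold minimum, the share of tested probe sets called was 13.5% for root against coleoptile, and in leaf it was 1.97% from stage 13 to 23, 2.27% from 23 to 49, 4.18% from 49 to 75, 0.0196% from 75 to 85 and 4.57% from 49 to 85. In stem it was 12.6% from stage 21 to 45, 3.04% from 45 to 59, 14% from 59 to 75 and 17.2% from 21 to 75. In seed it was 16.4% for embryo, 14.9% for crease, 7.06% for endosperm, 7.96% for pericarp and 11.5% for epiderm, each against the others, and 14.3% for seed against vegetative groups. With 12 members, a count of 0 is uninformative where the share is a few percent.

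**Figure D4:**
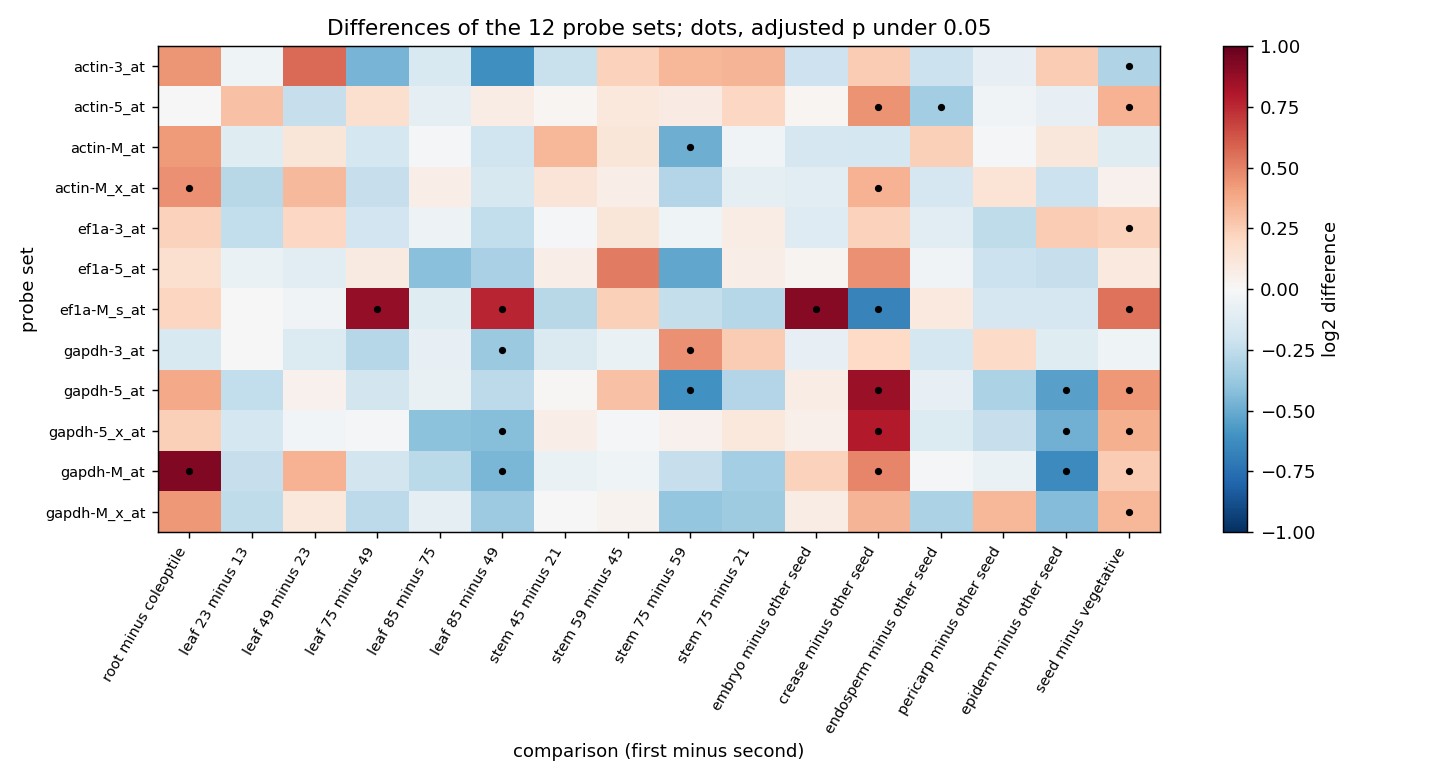
Log2 difference (colour, red higher and blue lower in the first-named group) of the 12 probe sets (rows) in the 16 comparisons (columns); dots mark an adjusted p under 0.05. Of the 29 dots, 6 lie in crease and 8 in seed against vegetative groups. In these comparisons 44% and 56.6% of all tested probe sets passed the same p. None of the differences reaches 1.

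In leaf 3 gapdh probe sets fell late in development and 1 ef1a probe set rose. From flag leaf at stage 49 to stage 85, 4 members passed the p (19% of tested probe sets did). Gapdh-3_at fell by 0.37 (adjusted p = 0.034), gapdh-5_x_at by 0.43 (adjusted p = 0.0146) and gapdh-M_at by 0.46 (adjusted p = 0.0101), with all stage 85 arrays below all stage 49 arrays in each. How many of all tested probe sets were separated in this way was not counted. Ef1a-M_s_at rose by 0.76 (adjusted p = 0.00994), to 5.23, 5.30 and 4.74, while ef1a-3_at and ef1a-5_at had lower means at stage 85 than at 49 and did not pass. The call of ef1a-M_s_at was lost without flag leaf stage 85 replicate 1 (0.69, adjusted p = 0.0577) or replicate 2 (0.66, adjusted p = 0.0729). It had already risen by 0.88 at stage 75 (adjusted p = 0.00316), where the arrays read 4.76, 5.78 and 5.09. That rise was 0.60 (adjusted p = 0.0829) without flag leaf stage 75 replicate 2. All 4 had both sides below background, and every one of the gapdh calls was lost without 1 or more single arrays of stage 85 and with spike centring, which gave -0.09, -0.15 and -0.18 in the same order. All 3 also missed the threshold when only the groups compared were fitted (adjusted p = 0.123, 0.121 and 0.0512). The call of gapdh-3_at was lost as well with median centring (-0.32, adjusted p = 0.0794, limma) and quantile normalization (-0.30, adjusted p = 0.109). The same held with array weights (adjusted p = 0.0588), with the replicate block (adjusted p = 0.0753), and without flag leaf stage 49 replicate 3 or 4 (adjusted p = 0.0628 and 0.0667). Actin-M_at and actin-5_at, the 2 actin members with most readings above background, did not pass in any leaf comparison.

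In stem the step from stage 59 to 75 was the one with passing members, 3 of 12 beside 27.2% of all. Gapdh-5_at fell by 0.60 (6.49 to 5.89, SE 0.154, adjusted p = 0.00202) and actin-M_at fell by 0.49 (7.08 to 6.59, SE 0.166, adjusted p = 0.0221). Gapdh-3_at, below background, rose by 0.46 (adjusted p = 0.0105), with stage 75 arrays at 4.67, 4.66 and 4.68 and stage 59 arrays at 4.14, 4.16 and 4.33. Their 3′ minus 5′ difference thus shrank, from -2.28 at stage 59 to -1.22 at stage 75. The fall of actin-M_at lost its call without any 1 of 4 stem arrays (adjusted p up to 0.0985) and with quantile normalization (0.0584), and with spike centring the rise of gapdh-3_at was 0.18 (adjusted p = 0.605). The fall of gapdh-5_at missed the threshold when only the groups compared were fitted (adjusted p = 0.0529). The change from stage 59 to 75 in stem differed from that of flag leaf from stage 49 to 75 in 2 members by p, beside 20.4% of all.

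Between root and coleoptile 2 members passed the p, beside 25.6% of all. Gapdh-M_at was 0.92 higher in root (adjusted p = 2.01e-06), at 3.90, 4.03 and 4.53 against 3.27, 3.29 and 3.13, the largest of the 192 differences in size, with both sides below background. Actin-M_x_at was 0.46 higher in root (adjusted p = 0.0151), at 6.43, 6.28 and 6.38 against 5.89, 5.87 and 5.96. That call was lost without root replicate 1 (adjusted p = 0.0598) or coleoptile replicate 2 (adjusted p = 0.0503). Actin-M_at pointed the same way, by 0.42, and missed the threshold (adjusted p = 0.0562), as did gapdh-5_at at 0.38 (adjusted p = 0.0696).

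Seed and vegetative groups differed in 8 of the 12 members by p alone, beside 56.6% of all. The 7 higher in seed were led by ef1a-M_s_at (0.54, adjusted p = 7.59e-06), gapdh-5_at (0.43, 6.53 against 6.10, adjusted p = 1.16e-07), gapdh-5_x_at (0.36, adjusted p = 1.15e-06) and actin-5_at (0.35, adjusted p = 5.23e-07). Actin-3_at was lower by 0.30 and lost its call without any 1 of 4 seed arrays and with spike centring (-0.04, adjusted p = 0.754). Actin-M_at did not pass, at -0.12 (adjusted p = 0.135).

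Differences between the genes on the same array cancel any shift common to an array. The log2 difference of actin-M_at and ef1a-3_at did not count as changing in leaf, stem, seed or over all groups, where it ranged by 0.90 (adjusted p = 0.0943). This pair rests on 1 array. Without crease replicate 3 the range was 1.01 in seed (adjusted p = 0.00498) and 1.31 over all groups (adjusted p = 0.00205). Actin-M_at minus gapdh-5_at changed in seed, by 1.36 (adjusted p = 1.15e-05), and over all groups, by 1.71 (adjusted p = 4.22e-07), and was lowest in crease in both. Ef1a-3_at minus gapdh-5_at changed in seed and over all groups as well, by 1.15 in each (adjusted p = 0.000863 and 0.000733), again with crease lowest; without epiderm replicate 2 the seed range was 0.98. None of the 3 pairs changed in leaf or in stem. Without crease the seed ranges of the 2 gapdh pairs were 0.72 (adjusted p = 0.0341) and 0.80 (adjusted p = 0.0198), below the minimum of 1.

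The probe sets for the 2 ends of a transcript were compared in the same way. The 3′ minus 5′ difference of gapdh changed in stem, by 1.06 (adjusted p = 0.000271), and over all groups by 1.52 (adjusted p = 5.23e-07), from -2.74 in crease to -1.22 in stem at stage 75. That of actin changed over all groups by 1.35 (adjusted p = 0.00069) and that of ef1a by 1.16 (adjusted p = 0.0174), which missed the threshold without stem stage 59 replicate 2 (adjusted p = 0.0508). By extraction, the group means of the gapdh difference lay between -2.08 and -1.55 with cesium chloride, -2.28 and -1.22 with RNeasy and cleanup, -2.74 and -1.44 with RNeasy, and -2.33 and -1.80 with guanidine hydrochloride. These intervals overlap. Those of the other genes did not all do so. For actin, guanidine hydrochloride gave -1.92 to -1.63, apart from cesium chloride (-1.45 to -1.01) and RNeasy with cleanup (-1.19 to -0.82), while RNeasy gave -1.89 to -0.57. For ef1a, RNeasy with cleanup gave 0.38 to 0.85, below cesium chloride (1.02 to 1.09), RNeasy (0.97 to 1.54) and guanidine hydrochloride (1.03 to 1.12). Each method was used on different tissues, and its part in these differences was not tested. The mean of at least 1 end of each gene lay below background in every group, and RNA integrity was not measured here. The stem range of gapdh was 0.92 without stem stage 59 replicate 2 or stem stage 75 replicate 2, and 0.98 without stem stage 59 replicate 1.

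Probe sets of 1 gene should share a pattern where they read the same transcript. Over the 16 group means, the 6 pairs of actin probe sets had a median Pearson r of 0.09 (from -0.39 to 0.52), and the 3 ef1a pairs 0.35 (0.12 to 0.53). The 10 gapdh pairs had 0.63 (-0.12 to 0.88). Ubiquitin probe sets had 0.80 (0.69 to 0.93), Sucsyn (sucrose synthase) 0.88, CYP86-TA 0.85 and G-6-PDH (glucose-6-phosphate dehydrogenase) 0.93, each over 3 pairs. The points share arrays and normalization, so these values are a description. The group means of the actin and ef1a probe sets thus did not follow 1 pattern per gene, and the reading changes with the probe set chosen. Over all groups the replicate SD of actin-3_at was 0.374 beside an SD of group means of 0.256. For ef1a-3_at it was 0.209 beside 0.198. In the other actin and ef1a members the replicate SD was the smaller. How far the spread between arrays lowers r was not tested.

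**Figure D5:**
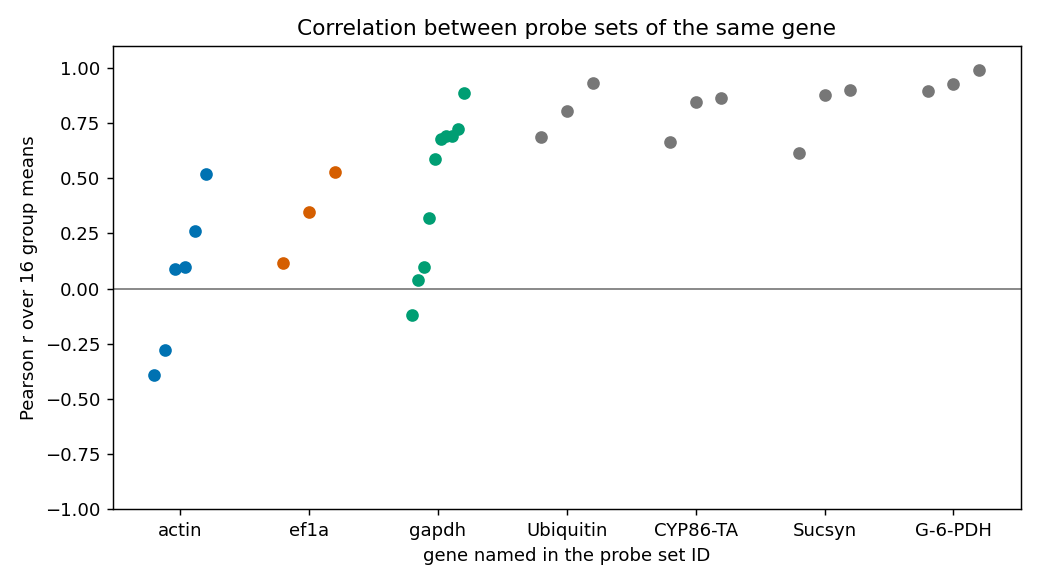
Pearson r over the 16 group means (vertical axis) for each pair of probe sets of the same gene (points), by gene (horizontal axis). The actin points lie between -0.39 and 0.52 and the ef1a points between 0.12 and 0.53, while every point of the 4 genes on the right lies above 0.6.

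The median of the reporter probe sets over groups lay between 3.24 in stem at stage 45 and 3.58 in leaf at stage 13, and its correlation with the members over the 16 group means ran from -0.40 for ef1a-5_at to 0.57 for gapdh-3_at. For gapdh-5_at it was 0.15 and for actin-M_at -0.33.

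Among the 21375 tested probe sets with a mean above background, those most like each gene over the 16 group means carried no gene name. For actin-M_at the closest had an r of 0.91, for ef1a-3_at 0.84 and for gapdh-5_at 0.92. The 3 closest to actin-M_at had ranges of 1.44, 1.85 and 2.21, wider than its own 0.77. The likeness is a description over 16 points.

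Gene names were at hand for 1273 of the probe sets, from an annotation of the platform that lists none as actin, ef1a or gapdh. Of the cytoskeleton list it named 2 probe sets of TUBA, alpha-tubulin, the subunit of microtubules. One of them, with probes that can bind other transcripts, was above background on all arrays (10.99 to 14.23) and changed in leaf (1.07, adjusted p = 2.03e-07), in stem (1.84, adjusted p = 1.03e-13) and over all groups (3.16, adjusted p = 1.05e-25), and did not pass in seed (0.46, adjusted p = 0.0718). The other was above background on 1 array. Of the glycolysis list it named 1 probe set of PFK, phosphofructokinase, which was above background on no array. It also named 1 probe set GAPN, a symbol used for a glyceraldehyde-3-phosphate dehydrogenase that works without phosphate. It was above background on 41 arrays, with group means from 4.51 in root to 11.83 in flag leaf at stage 49. It changed in stem (1.11, adjusted p = 0.000503), in seed (3.39, adjusted p = 1.68e-13) and over all groups (7.32, adjusted p = 1.57e-29), and did not pass in leaf (0.40, adjusted p = 0.534). Of the translation elongation list it named none. It named none of the tissue markers either, so the labelled tissues were not checked against markers. The 3 Ubiquitin probe sets, bright on every array, changed in stem by 1.05 to 1.19 and over all groups by 1.08 to 2.15, while in leaf they ranged by 0.23 to 0.52. In seed the 3′ one changed by 1.75 and the 5′ one by 1.02, while the middle one ranged by 0.95, under the minimum of 1. The 18SrRNA probe set, for ribosomal RNA, had group means from 5.25 in root to 13.28 in stem at stage 21.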

How the data were processed

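RNA of 48 arrays in 16 groups was measured on the Affymetrix wheat array, labelled with biotin after amplification in a pair of cycles, per the labels' protocols. The authors deposited 1 table of log2 values made with RMA, per the submitters' processing notes; its software and version are not stated there, and the log base was taken as 2 because the values run from 1.92 to 15. The table holds 61290 probe sets with no missing value, and no 2 arrays are identical. Since RMA makes the arrays' distributions alike, a shift of most transcripts together would be lost. The number of arrays limits the precision.

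From these values, limma 3.58.1 in R 4.3.3 fitted a mean per group over all 48 arrays to 61146 rows: the 61115 tested probe sets (111 control and 64 reporter probe sets left out), the 25 controls named after wheat genes, and 6 differences between probe sets. Moderated F and t tests were two-sided and adjusted by Benjamini-Hochberg over all rows. The steps were tested on simulated data. The named genes are all 12 members, each gene represented by its probe set with the highest mean, with the 3 most correlated other probe sets beside it. The members, gene lists and comparisons were chosen with earlier results of these data known. Replicate numbers gave same-numbered arrays a median correlation of deviations of 0.00112 over 331 pairs, with 15 over 0.1, so they were not taken as pairs. Alternatives covered scaling, filter, variance prior, array weights, threshold, samples in the fit, replicate block, extraction and each array left out in turn. No sequences of the probe sets were used here.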

Additional observations from a re-analysis of the deposited data

Results flagged for a closer look

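The change from before to after anthesis, flag leaf stage 49 to 75 against stem stage 59 to 75, differed between leaf and stem in 2 of the 12 members by limma's contrast of the changes, beside 20.4% of all tested probe sets. Ef1a-M_s_at moved by 0.88 in leaf and -0.24 in stem, a difference of 1.12 (SE 0.322, adjusted p = 0.00924); its readings were below background in both organs. Without flag leaf stage 75 replicate 2 the difference was 0.84 (adjusted p = 0.0656). Gapdh-3_at moved by -0.29 in leaf and 0.46 in stem, a difference of -0.75 (SE 0.188, adjusted p = 0.0029), and was also below background throughout. With spike centring it was -0.058 (adjusted p = 0.882). The starting stages of the 2 organs differ, and extraction included a further cleanup in stem only. A check for a single outlying array was made in flag leaf stage 49, the one group large enough for it, and flagged none in any member. It can miss 2 arrays that lie apart together. In ef1a-M_s_at replicates 4 and 5 of that group read 4.77 and 4.69, beside 4.27, 3.91 and 4.0. The lowest flag leaf array at stage 75 read 4.76.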

How the results depend on the processing

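Centring on hybridization spikes shifted whole groups by -0.59 to 0.57 on the log2 scale. It raised the calls among single comparisons from 0 to 5, members changing in leaf from 0 to 1 and over all groups from 6 to 11, and the ranges over all groups to 1.72 for actin (adjusted p = 4.87e-09) and 1.5 for ef1a (1.11e-05), with SDs of 0.465, 0.450 and 0.535 for actin, ef1a and gapdh. The seed range of gapdh fell below the minimum, to 0.86, and the crease difference of actin-M_x_at turned to -0.023. Quantile normalization gave 1 call and a 3′ minus 5′ range of gapdh in seed of 1.20, array weights an actin minus ef1a range of 1.09 over all groups. At an adjusted p under 0.01 the 3′ minus 5′ range of ef1a over all groups (1.16) was no longer called. Without the fold or range minimum there were 29 calls, and 4, 3, 7 and 11 members changed in leaf, stem, seed and over all groups; actin was then called in stem (0.49) and over all groups (0.77), ef1a over all groups (0.66), gapdh in stem (0.60) and its 3′ minus 5′ difference in seed (0.94).

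With the mean of a gene's probe sets, actin minus gapdh ranged by 0.73 over all groups and 0.62 in seed, ef1a minus gapdh by 0.75 and 0.74, and gapdh in seed by 0.79 (SD 0.286). Tissues extracted with guanidine hydrochloride gave 0 changing members and a gapdh range of 0.32 (SD 0.159); crease and epiderm alone gave an SD of 0.798. Without the crease arrays 0 members changed in seed; gapdh ranged by 0.50 in seed (SD 0.217) and 0.77 over all groups, actin minus gapdh by 0.72 in seed, and ef1a minus gapdh by 0.80 in seed and over all groups. With the replicate block, which the check of the numbers did not bear out (19 of 48 arrays correlated best with their own number), there were 2 calls and 1 member changed in leaf.

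Leaving out 1 array at a time gave 0 to 1 calls, and 0 to 1 changing members in leaf, 2 to 4 in seed and 5 to 7 over all groups. The range of group means was then 0.71 to 1.04 for actin over all groups. It was 0.69 to 1.31 (all) and 0.39 to 1.01 (seed) for actin minus ef1a, and 0.98 to 1.32 for ef1a minus gapdh in seed. For 3′ minus 5′ it was 0.69 to 1 for actin in leaf, 1.09 to 1.36 for ef1a over all groups, and 0.87 to 1 (seed) and 0.92 to 1.29 (stem) for gapdh. The single calls arose without root replicate 1, flag leaf stage 75 replicate 1 or embryo replicate 3. The trended prior moved none of these results past a threshold, and median centring 1, the fall of gapdh-3_at from flag leaf stage 49 to 85 (-0.32, adjusted p = 0.0794); where settings moved one, the cause was not tested. Leaving out the lowest 25% of probe sets removed gapdh-M_at from the tests. Signal near background limits what can be said of ef1a and of the dim members of the other genes.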
